A study of Homo sapiens with 11 samples.

Results

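Acetylation of histone H3 at lysine 27 (H3K27ac) was mapped by chromatin immunoprecipitation and sequencing in 92-1 cells, an established human uveal melanoma line, after 4 h with FHT-1015, an inhibitor of the chromatin remodelling ATPases SMARCA4 and SMARCA2, or with DMSO, its solvent. There was 1 H3K27ac library per condition, so no difference described here has a replicate check, and intervals over peaks cover counting error only. The regions described were all entries of the narrow and broad H3K27ac peak lists, with entries of the same chromosome, start and end counted once: 210417 of the 1174738 peaks in the lists of all antibodies. None was duplicated. The cells of both conditions were the same line, with no engineered allele named in the labels, and the dose was not given in the sources used here. The other libraries used here were made with antibodies to SMARCA4, MITF, TFAP2A (titled AP-2) and SOX10 in the same conditions.

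H3K27ac is deposited by the acetyltransferases p300 and CBP on nucleosomes beside active promoters and enhancers, and wide acetylated domains are known to surround genes that define a cell's identity. BAF complexes, of which SMARCA4 or SMARCA2 is the motor, use ATP to move or evict nucleosomes and keep enhancers open to transcription factors. In pigment cells those factors include MITF, the master regulator of the melanocyte lineage, SOX10, a neural crest factor that drives MITF and pigment genes, and TFAP2A. The acetylated genes fitted the label of a pigment cell line. In DMSO, broad peaks covered between 6476 bp (DCT) and 125755 bp (MITF) of the windows of the 7 pigment markers MITF, SOX10, PMEL, MLANA, TYR, TYRP1 and DCT, a window being the gene and 10 kb on either side. Of 20 markers of blood, liver, muscle, epithelial, endothelial, neural, retinal and pancreatic cells, 15 had no covered base within the gene in DMSO, among them CD3E, ALB, MYOD1, KRT5, EPCAM and PECAM1. Among markers with at least 2 kb in their window, PTPRC covered 2167 bp in DMSO and 2919 bp in FHT-1015, CDH5 2803 and 2306 bp, GFAP 2801 and 2522 bp and GRHL2 2776 and 1530 bp.

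Promoter sequences of pigment genes are shown first because their domains had different fates. They are the 250 bases before a transcript start, 5′ to 3′, from RefSeq (GRCh38.p14). Capitals mark CATGTG or its reverse complement, the core of the M-box to which MITF is known to bind.

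DCT: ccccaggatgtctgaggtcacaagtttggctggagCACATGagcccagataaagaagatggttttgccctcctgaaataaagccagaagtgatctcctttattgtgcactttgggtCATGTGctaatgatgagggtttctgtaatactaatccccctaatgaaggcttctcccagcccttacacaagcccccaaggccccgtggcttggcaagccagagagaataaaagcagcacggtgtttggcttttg

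TYR: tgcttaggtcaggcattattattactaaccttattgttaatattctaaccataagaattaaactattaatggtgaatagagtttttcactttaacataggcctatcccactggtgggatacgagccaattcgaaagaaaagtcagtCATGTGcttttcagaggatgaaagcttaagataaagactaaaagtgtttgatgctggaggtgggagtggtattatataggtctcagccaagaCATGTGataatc

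TYRP1: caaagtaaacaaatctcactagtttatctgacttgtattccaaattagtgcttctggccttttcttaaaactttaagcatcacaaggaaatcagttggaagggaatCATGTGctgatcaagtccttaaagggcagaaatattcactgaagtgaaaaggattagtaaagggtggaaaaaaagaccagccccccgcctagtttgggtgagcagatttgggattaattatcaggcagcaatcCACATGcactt

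MLANA: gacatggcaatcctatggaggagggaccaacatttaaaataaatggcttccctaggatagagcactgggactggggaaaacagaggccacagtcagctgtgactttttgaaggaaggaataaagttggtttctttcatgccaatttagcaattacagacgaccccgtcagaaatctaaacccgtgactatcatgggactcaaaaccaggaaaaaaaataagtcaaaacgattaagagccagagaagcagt

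MITF: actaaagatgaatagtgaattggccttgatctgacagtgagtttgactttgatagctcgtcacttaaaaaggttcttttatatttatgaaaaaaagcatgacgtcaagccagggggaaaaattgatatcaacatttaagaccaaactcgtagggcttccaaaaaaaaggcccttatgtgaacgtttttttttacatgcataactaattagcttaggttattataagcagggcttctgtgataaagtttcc

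The DCT stretch lies at chr13:94479683-94479932 on the minus strand. The others lie on the plus strand, at chr11:89177625-89177874 for TYR, chr9:12693135-12693384 for TYRP1, chr9:5890639-5890888 for MLANA and chr3:69936342-69936591 for MITF, the last at the start of the melanocyte isoform. DCT, TYR and TYRP1 each held 2 matches to CATGTG and the other two stretches held 0. By comparison, 7.60% of 22156 starts of 15813 coding genes held at least 1. The E-box CACGTG, held on either strand by 7.37% of all starts, was in none of the 5. The SOX core ACAAAG (11.6% of starts) was in none of them either. The AP-2 motif GCCNNNGGC (23.4% of starts) was also in none. A match describes letters in the window, not an occupied site. The 5 starts differed in their acetylated domains: the domain at the DCT start was 2315 bp in DMSO and 222 bp in FHT-1015, where it did not reach the start itself. The TYR domain measured 10082 and 9966 bp, that of MLANA 12063 and 10033 bp, that of TYRP1 41014 and 48721 bp and that of MITF 15780 and 30284 bp. DCT and MITF have other annotated starts, not printed, none with a CATGTG match. The DCT start at chr13:94549406 lay under no domain in either condition. At MITF, the domain over chr3:69739464 measured 3808 and 3802 bp. That over chr3:69763811, where ACAAAG matched 1 time, measured 3722 bp in DMSO, with a piece of 2891 bp in FHT-1015.

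The FHT-1015 library had fewer and, in covered length, less extensive H3K27ac. Narrow peaks, which follow local summits, numbered 68093 in DMSO and 48103 in FHT-1015, a ratio of 0.706, and covered 68.2 and 52.1 Mb. Their median width was 515 bp in DMSO and 618 bp in FHT-1015, a ratio of 1.2 that reversed to 0.907 when peaks within 1 kb were joined. Broad peaks, which join neighbouring signal into domains, numbered 53087 and 41134 and covered 81.0 and 59.95 Mb, a length ratio of 0.740. Their median width was nearly equal, 964 and 966 bp, while the mean was 1526 bp in DMSO and 1457 bp in FHT-1015. The wide end of the list was shorter too: 1984 domains exceeded 5 kb in DMSO and 1234 did in FHT-1015, and those over 10 kb numbered 260 and 177. Sequencing depth was not given in the sources used here. Read counts at the summits, recovered from the deposited fold and p of each narrow peak under a Poisson background, had medians of 22 in DMSO and 25 in FHT-1015. The lowest background per base recovered in the same way was 1.05 times higher in FHT-1015. The part of depth in the shorter FHT-1015 list was not tested.

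Removed length lay more in domains that persisted than in domains that disappeared. Of the DMSO broad peaks, 62.5% (95% Wilson interval 62.0 to 62.9) shared a base with an FHT-1015 broad peak and were retained, and 19931 (37.5%) were lost. Lost peaks held 11.7 Mb, 39.6% of the acetylated length removed, and another 17.9 Mb was removed from inside retained peaks. Length shared by both lists came to 51.4 Mb, 63.4% of the DMSO length and 85.7% of the FHT-1015 length. FHT-1015 added 3.16 Mb in 7543 domains that touched no DMSO domain and 5.43 Mb as extensions of existing domains. Narrow peaks gave a retained share of 59.3%.

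Each DMSO domain was given a fate from the FHT-1015 domains it overlapped. A domain matched to a single FHT-1015 domain shrank when its width came to 0.8 of the DMSO width or less, spread at the inverse of that ratio or more, and kept a similar width in between. A domain that met several FHT-1015 domains was fragmented, several DMSO domains that met a single FHT-1015 domain were merged, and many-to-many links were called rearranged. Of the 53087 domains, 11685 (22.01%) shrank, 12195 (22.97%) kept a similar width, 4032 (7.60%) spread and 1767 (3.33%) fragmented. The fragmented share was 1.597% when only pieces of at least 500 bp counted, and 1.197% when both lists were limited to a −log10 p of 10 or more. A further 3317 (6.25%) merged and 160 (0.301%) were rearranged. From the FHT-1015 side, 1506 domains joined several DMSO domains, none of which met another FHT-1015 domain. Some merged domains shared their FHT-1015 domain with a rearranged one and lie outside that count. Most fragmented domains (1536) broke into 2 pieces, 182 broke into 3 and 37 into 4. Fragmented domains kept 65.0% of their bases and shrunken domains 50.1%. Over the 27912 singly matched domains the median ratio of FHT-1015 to DMSO width was 0.878.

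The narrowest domains were mostly lost and the widest most often broke up. Among domains of 500 bp or less 71.9% were lost, against 48.6% from 500 bp to 1 kb, 20.1% from 1 to 2 kb, 3.59% from 2 to 5 kb and 0.232% from 5 to 10 kb. None of the 260 domains over 10 kb was lost, a count that allows a share of up to 1.46% (upper Wilson limit). Shrinking was most frequent among domains of 2 to 5 kb (39.9%). Fragmentation went from 7.39% at 2 to 5 kb to 32.3% at 5 to 10 kb and 51.9% over 10 kb. Spreading ran the other way, from 11.7% of domains of 500 bp or less to 0.870% at 5 to 10 kb and 0 of 260 over 10 kb. A wide domain has more bases with which to touch an FHT-1015 domain, so retained shares are not comparable across widths as a measure of signal. The shortest FHT-1015 broad peak was 198 bp, so the narrowest DMSO domains could not meet the rule for shrinking. A wide domain also has more room for gaps. Shares that shrank, spread or fragmented are therefore not comparable across widths either.

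**Figure D1:**
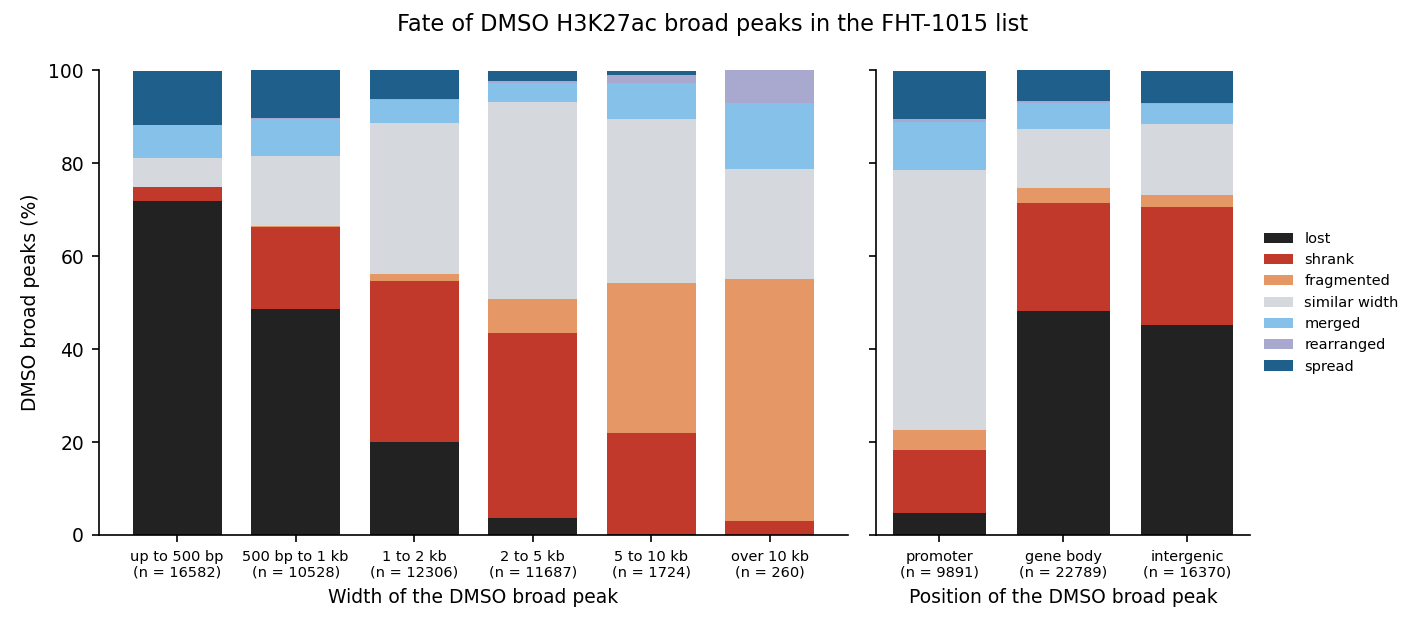
Stacked bars give the percentage of DMSO H3K27ac broad peaks with each fate in the FHT-1015 list, by width of the DMSO peak (left) and by its position (right, promoter meaning within 1 kb of a protein-coding start), with the number of peaks under each bar. The lost share goes from 71.9% of the narrowest peaks to 0 of the 260 widest, and is 4.70% at promoters.

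Promoter domains kept their extent and distal domains did not. Domains within 1 kb of a protein-coding start covered 22.5 Mb in DMSO and 20.9 Mb in FHT-1015, a log2 ratio of −0.11, and 95.3% of them were retained. Distal domains covered 51.4 and 33.5 Mb, a log2 ratio of −0.62, with 53.1% retained. Gene bodies and intergenic DNA hardly differed from each other, with log2 ratios of −0.61 and −0.63. The difference between promoter and distal log2 ratios was 0.51, and the promoter share of all acetylated length was 27.8% in DMSO and 34.8% in FHT-1015. Promoter domains were also wider, with a median of 1892 bp in DMSO against 745 bp for distal ones. Within the 2 to 5 kb class, 0.301% of promoter and 5.81% of distal domains were lost, and 18.4% and 53.7% shrank. Among domains of 500 bp or less, 27.2% of promoter and 75.6% of distal ones were lost. Distal domains at the start of a long noncoding RNA covered 2.41 and 1.64 Mb, a log2 ratio of −0.56, and 75.1% of them were retained. Domains near genes without an entry in the promoter table, 4037 in DMSO, were left out of these classes.

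The fates at promoters also differed from those elsewhere. A similar width was kept by 55.9% of promoter domains, 4.70% were lost, and the counts that shrank and spread were close, 1345 and 1041. Distal domains that shrank numbered 9471 against 2652 that spread. Breaking and joining, with many-to-many links left out, were also unlike. At promoters 434 DMSO domains broke up and 601 FHT-1015 domains joined several DMSO domains, whereas in distal DNA 1181 broke up and 757 joined. Median width ratios of singly matched domains were 0.984 at promoters, 0.747 in gene bodies and 0.761 between genes.

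Seen base by base, the covered length was slightly larger at the start and smaller a few kilobases away. The ratio of FHT-1015 to DMSO covered length was 1.04 within 250 bp of a start, 0.962 from 500 bp to 1 kb, 0.833 from 1 to 2 kb and 0.713 from 2 to 3 kb. It was lowest, 0.618, at 10 to 20 kb and 0.702 beyond 100 kb. Of the DMSO bases, 96.2% were kept within 250 bp and 51.4% at 10 to 20 kb. From 2 to 3 kb the ratio was 0.647 upstream and 0.752 downstream. In 5984 singly matched domains over a single start, the upstream edge moved outward by a median of 2 bp and the downstream edge inward by 21 bp. Both edges of these promoter domains varied far more than their medians, with 20.1% of upstream and 25.2% of downstream edges moving inward by over 200 bp.

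**Figure D2:**
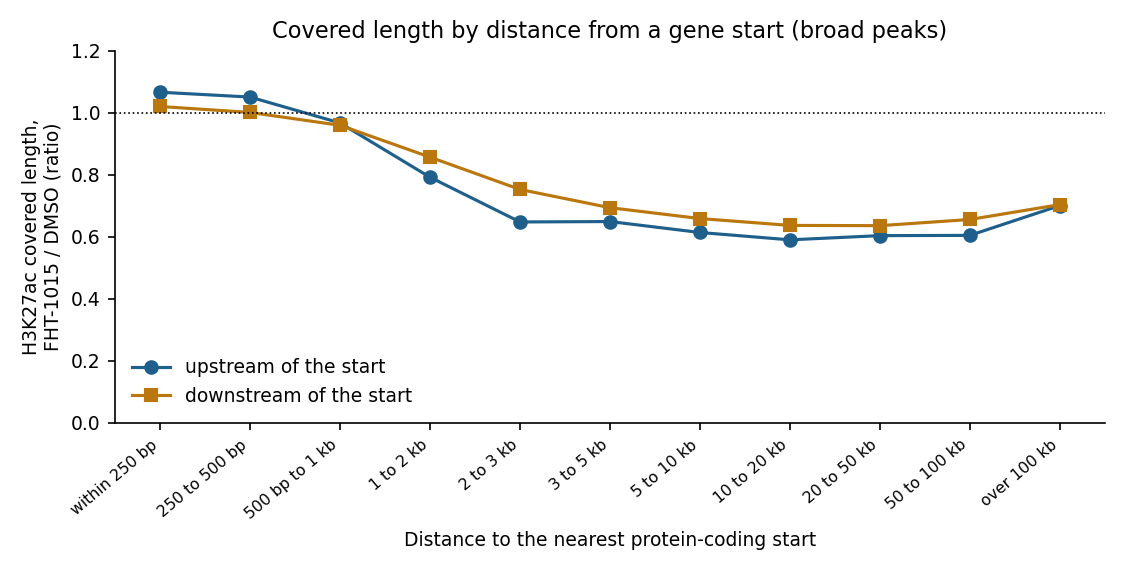
Ratio of H3K27ac covered length (FHT-1015 over DMSO, broad peaks) in bins of distance to the nearest protein-coding start, upstream (circles) and downstream (squares); the dotted line marks an equal length. The ratio is above 1 within 250 bp and between 0.590 and 0.636 at 10 to 20 kb.

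Promoter base composition and chromosome moved with these values, and their part in the result was not tested. Starts acetylated in DMSO were still acetylated in FHT-1015 at 225 of 250 starts whose 300 bases in the promoter table held under 40% GC and at 4901 of 5002 starts with 60 to 70% GC, a start counting as acetylated when a domain lay within 1 kb of it. By chromosome the log2 ratio of covered length lay between −0.67 (chromosome 22) and −0.22 (chromosome 4), with −0.29 for X. Spearman's rho between that ratio and coding genes per Mb was −0.36 over 23 chromosomes, all from the same pair of libraries.

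Per gene, loss of acetylated length was common and gain was rare. Of 19974 protein-coding genes, 11471 had at least 2 kb under broad peaks in either condition within their window and were compared. With 1 kb added to both lengths, 2483 genes (21.6%) had at most 1/1.5 of the DMSO length, called less, and 95 (0.828%) had at least 1.5 times that length, called more. When both lists were limited to peaks with −log10 p of 10 or more, 1651 of 9847 genes were called less and 540 more, so the split between the directions differed with this threshold. The median log2 ratio was −0.21 and 75.5% of genes were below 0. Windows of neighbouring genes overlap, so a domain can count for several genes. Genes called less had a median of 6959 bp in DMSO and 3018 bp in FHT-1015, and genes called more had 2272 and 4685 bp. The median gene length was 58906 bp for genes called less, 28496 bp for neither and 68953 bp for more. The part of gene length in these calls, and in the shares of the gene lists below, was not tested. A domain within 1 kb of a start remained in 92.2% of the less genes that had such a domain in DMSO, against 99.3% of genes called neither and 100% of genes called more.

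**Figure D3:**
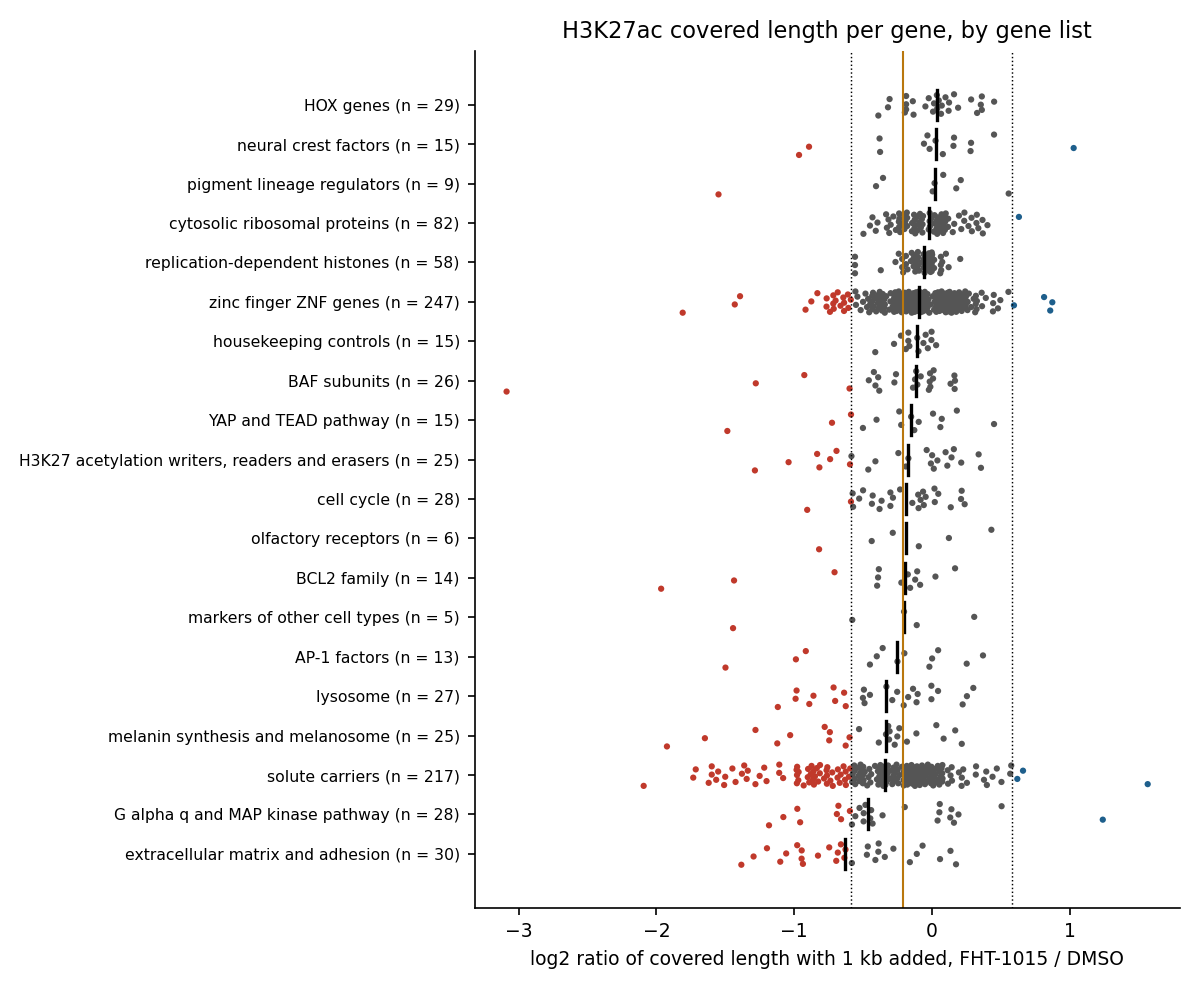
Each point is the log2 ratio of H3K27ac covered length (FHT-1015 over DMSO, broad peaks, 1 kb added) of a gene in a list, with black bars for list medians, dotted lines at a 1.5-fold ratio and the orange line at the median of all 11471 genes (−0.21). Points called less are red and points called more are blue. Extracellular matrix and adhesion genes have the lowest median (−0.63) and HOX genes the highest (0.04).

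Among regulators of the pigment lineage, SOX10 was the only gene of 9 called less (11.1%, against 21.6% of all genes), and none was called more. Domains in the SOX10 window covered 21003 bp in DMSO and 6520 bp in FHT-1015. Its 3 wide DMSO domains, at chr22:37964723-37970083, chr22:37970803-37977143 and chr22:37977731-37986707, all fragmented, and 24.98%, 23.5% and 41.1% of their bases stayed covered. Another, of 324 bp, was lost. MITF covered 125755 bp in DMSO and 142296 bp in FHT-1015, and the domain at the melanocyte start merged with its neighbours into 30284 bp. PAX3, a paired-box factor upstream of MITF, held the widest domain of the DMSO list, 81065 bp at chr2:222193060-222274124, of which 99.6% stayed covered; its window covered 106087 and 106506 bp. TFAP2A covered 29844 and 30262 bp. EDNRB, the endothelin receptor of melanoblasts, covered 22819 and 24220 bp, and ZEB2, a zinc finger factor of melanocyte differentiation, 34255 and 50883 bp, short of the 1.5-fold call. The median log2 ratio of this list was 0.02, against −0.21 over all genes.

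Downstream of those regulators, 10 of 25 genes of melanin synthesis and the melanosome (40%, against 21.6% of all genes) were called less and 0 more (0.828% of all genes), with a list median of −0.33. On narrow peaks 9 of the 10 also passed the ratio, and MLANA, at a log2 ratio of −0.58, fell just short. DCT, the dopachrome tautomerase of eumelanin synthesis, covered 6476 bp in DMSO and 1386 bp in FHT-1015. CAPN3, a calpain protease, went from 31249 to 7503 bp. MLPH and MYO5A, the linker and motor that carry melanosomes along actin, went from 10384 to 3686 bp and from 41017 to 19595 bp. OCA2, a melanosomal membrane protein, covered 5130 and 1816 bp, and SLC45A2, a melanosomal transporter, 5112 and 2961 bp. MLANA, a melanosome antigen, covered 19593 and 11008 bp: the domain over its start was kept at a similar width, while 6 domains around it were lost and 3 shrank. HPS1, BLOC1S1 and CD63, which serve melanosome biogenesis and trafficking, were the other members called less. The windows of BLOC1S1 and CD63, on chromosome 12, overlap, so the same domains can count in both calls. TYRP1 was different from DCT: its domain of 41014 bp, among the 5 widest in DMSO, was contained in an FHT-1015 domain of 48721 bp. TYR, the tyrosinase that starts melanin synthesis, covered 15621 and 12785 bp. PMEL, the fibril protein of the melanosome, covered 21430 and 17009 bp, with its 18466 bp domain broken into 3 pieces that kept 89.2% of it. That domain also lies in the window of its neighbour CDK2.

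**Figure D4:**
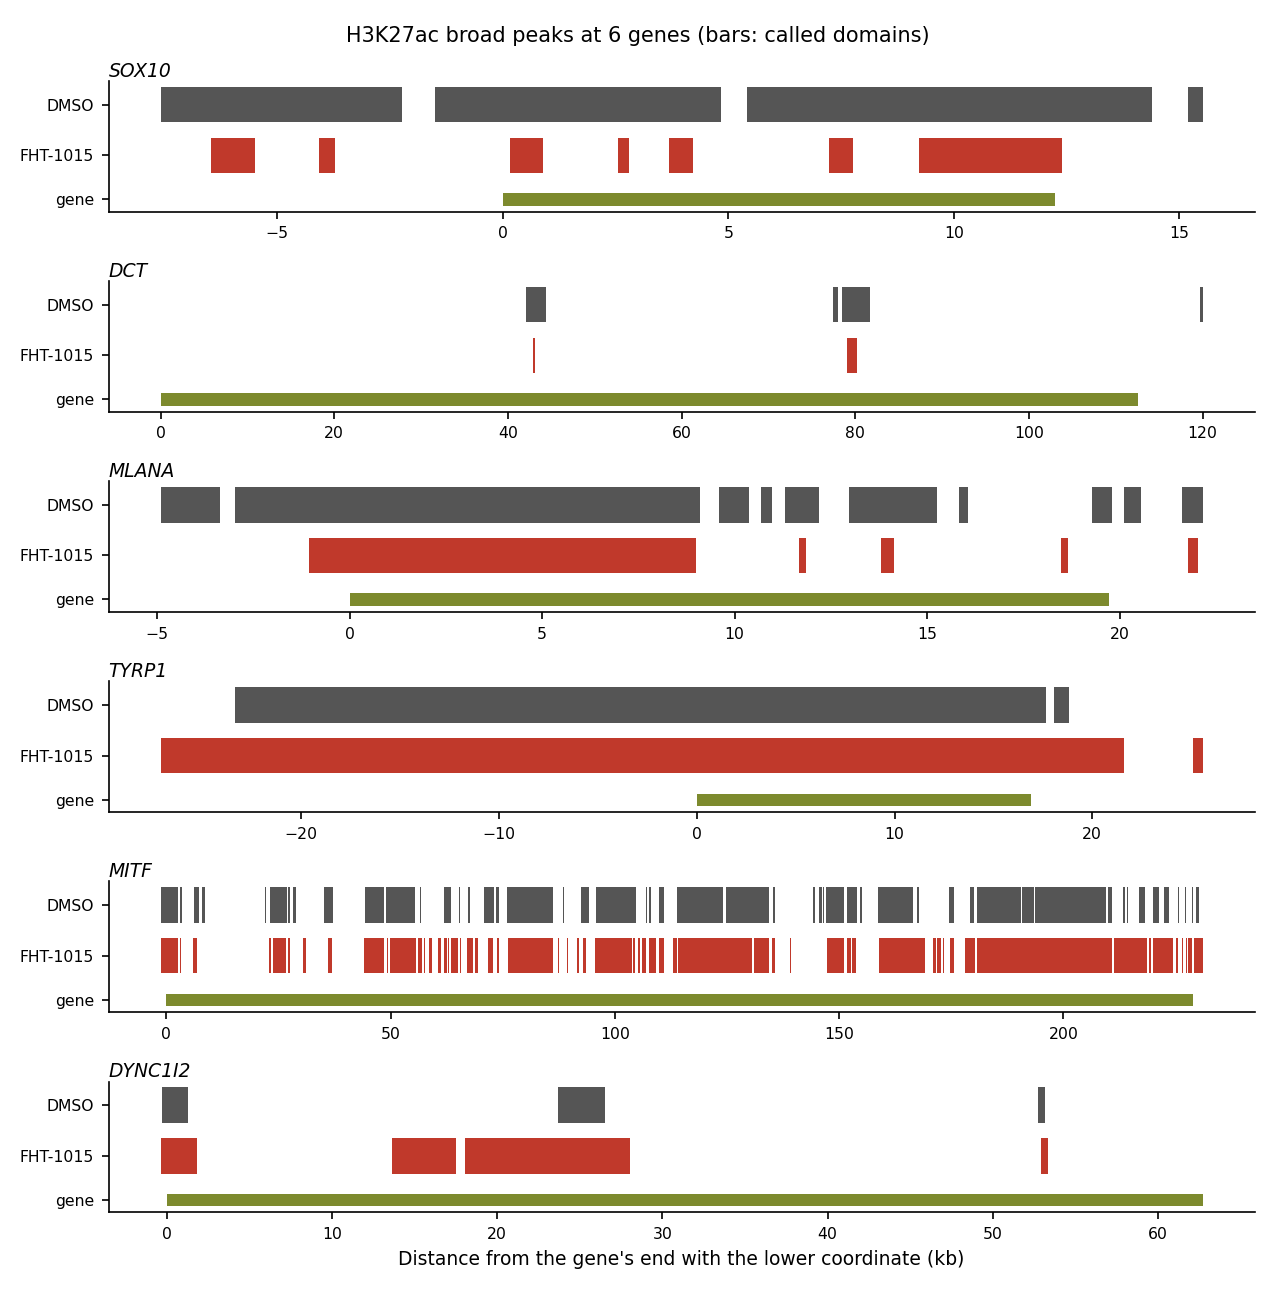
Bars are called H3K27ac broad peaks in DMSO (grey, upper) and FHT-1015 (red, lower) around 6 genes (green), against distance in kb from the gene's end with the lower coordinate; bars show extent, not height, and the kb axis differs between panels. SOX10 and DCT domains are reduced to short pieces, while those of TYRP1 and DYNC1I2 widen from 41014 to 48721 bp and from 2840 to 9956 bp.

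Neural crest factors were mixed, with 2 of 15 (13.3%, against 21.6% of all genes) called less, 1 more and a median of 0.03. FOXD3, a forkhead factor of the early neural crest, covered 2961 bp in DMSO and 7084 bp in FHT-1015. SOX8, a relative of SOX10, covered 3950 and 1537 bp and MSX2, a homeobox factor, 3559 and 1457 bp. SOX6 and SNAI2 were not called, at 112687 and 137113 bp and at 13360 and 16488 bp.

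In the Gαq and MAP kinase pathway, which mutant GNAQ or GNA11 drives in most uveal melanomas, 8 of 28 genes (28.6%, against 21.6% of all genes) were called less and 1 more, with a median of −0.46. GNAQ itself covered 19467 bp in DMSO and 12549 bp in FHT-1015, and PLCB4, the phospholipase downstream of it, 29821 and 18257 bp. TRIO, an exchange factor, covered 16051 and 9797 bp and PRKCD, a protein kinase C, 9429 and 4299 bp. The kinases BRAF (6063 and 3379 bp) and MAP2K2 (14293 and 5739 bp) and the pathway targets ETV4 (17338 and 8451 bp) and IER3 (8797 and 3640 bp) completed the genes called less. On narrow peaks 6 of the 8 also passed the 1.5-fold ratio. BRAF did not, with a log2 ratio of −0.69 on broad and −0.07 on narrow peaks, nor did GNAQ, with −0.60 and −0.53. SPRY1, a feedback inhibitor of receptor signalling, was the gene called more, at 755 and 3147 bp. RASGRP3, an activator of Ras known to act in this pathway in uveal melanoma, covered 54610 and 56226 bp.

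Matrix and adhesion genes had the lowest median of the 20 lists, −0.63, with 16 of 30 (53.3%, against 21.6% of all genes) called less and 0 more. Of the 16, 9 also passed the ratio on narrow peaks, where the list median was −0.46. COL9A3, a collagen chain, covered 12574 bp in DMSO and 4204 bp in FHT-1015. The integrins ITGA3 and ITGB3 covered 8075 and 2700 bp and 4356 and 1336 bp. SPARC, a matrix glycoprotein, covered 5693 and 2121 bp, and NRP2, a semaphorin receptor, 18175 and 8212 bp. CD44, the hyaluronan receptor, had the widest acetylation of the list, 40154 and 23552 bp. ITGB1, the common β chain of many integrins, was not called, at 8949 and 9925 bp.

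Lysosomal genes, which MITF relatives control, counted 9 of 27 (33.3%, against 21.6% of all genes) called less, 6 of them on narrow peaks as well, and 0 more, with a median of −0.33. They included the cathepsins CTSB (9548 and 4313 bp) and CTSZ (9455 and 3816 bp), the membrane protein LAMP2 (6007 and 2547 bp) and the channel TPCN2 (10127 and 5005 bp).

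In the BCL2 family 3 of 14 (21.4%) were called less, the share of all genes being 21.6%, and 0 more. All 3 passed on narrow peaks too. BCL2L1, which encodes the survival protein BCL-XL, covered 18119 bp in DMSO and 3896 bp in FHT-1015. BCL2, also a survival protein, covered 48313 and 29217 bp, and HRK, a pro-apoptotic member, 6725 and 1855 bp. MCL1 and BCL2A1 were not called, at 7016 and 6102 bp and at 10106 and 7504 bp.

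Among the BAF subunits themselves, 4 of 26 (15.4%, against 21.6% of all genes) were called less and 0 more. DPF3, a PHD finger subunit, had 7499 bp in DMSO and no called domain in FHT-1015. SS18L1 covered 28194 and 11036 bp, SMARCB1, a core subunit, 5694 and 2523 bp, and BCL7C 13154 and 8353 bp, the last short of the ratio on narrow peaks (log2 −0.39). The targets of the inhibitor were not called: SMARCA4 covered 3904 and 3559 bp and SMARCA2 8836 and 8761 bp.

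Writers, readers and erasers of H3K27 acetylation had 7 of 25 called less (28%, against 21.6% of all genes) and 0 more, with a median of −0.17 against −0.21. Some of them act on the repressive side, such as the deacetylases HDAC4 (70423 and 39096 bp) and HDAC5 (27670 and 12941 bp) and the corepressor NCOR1 (8996 and 4676 bp). Also called less were the acetyltransferase KAT2A, the coactivator NCOA1 and the H3K27 demethylase KDM6A, which covered 9679 and 6073 bp. KAT2A, NCOA1 and KDM6A did not pass the ratio on narrow peaks, where their log2 ratios were −0.06, −0.27 and −0.41, and 4 of the 7 passed. The principal writers were not called, with EP300 at 5107 and 4426 bp and CREBBP at 10038 and 10826 bp.

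Shares near or below the 21.6% of all genes were also found for stress and growth factors. Of 13 AP-1 factors 3 (23.1%) were called less and 0 more: the small MAF factor MAFK (9238 and 2624 bp), MAF itself (13012 and 6430 bp) and JDP2, a repressor of AP-1 (3545 and 1293 bp). FOS, JUN and JUNB were not called. Of 15 YAP and TEAD pathway genes 3 (20%) were called less, namely AMOTL1 (14874 and 4672 bp), CCN2 (4367 and 2247 bp) and AJUBA (6580 and 4046 bp). Among 28 cell cycle genes 2 (7.14%) were called less, AURKA (11256 and 5545 bp) and CCND3 (11095 and 7050 bp), and 0 more.

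Of 82 cytosolic ribosomal protein genes 0 were called less and 1 more (RPL36AL, 2130 and 3850 bp), with a median of −0.02. None of 58 replication-dependent histone genes (median −0.06), 29 HOX genes (0.04) or 15 housekeeping genes (−0.11) was called in either direction. ZNF genes, a large family of zinc finger factors, had 21 of 247 (8.502%) called less and 4 more (median −0.09). Solute carriers, membrane transporters, had 61 of 217 (28.1%) called less and 3 more (median −0.34), against 21.6% and 0.828% of all genes.

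Over all genes, the lowest ratios among those with at least 10 kb in DMSO were found at genes that kept few of their DMSO domains. ADAMTS16, a secreted metalloprotease, had 9 domains and 11061 bp in DMSO and 1 domain of 691 bp in FHT-1015. CDH4, a cadherin, went from 11 domains and 11343 bp to 1 of 1029 bp. SYN3, a synapsin, went from 22 domains and 29663 bp to 5 and 4104 bp, and LIPC, hepatic lipase, from 20 and 30774 bp to 5 and 5104 bp. ITPK1, an inositol phosphate kinase, went from 23 and 28958 bp to 4 and 4886 bp. The remaining genes of the lowest 10 were SLAMF1, APBA2, ADGRG1, ALDH1B1 and ATP8A2.

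At the other end, the 10 highest ratios among genes with at least 10 kb in FHT-1015 came with more domains in each gene, not only wider ones. DYNC1I2, a dynein intermediate chain, covered 4869 bp in 3 DMSO domains and 16463 bp in 4 FHT-1015 domains. TFB1M, a mitochondrial rRNA methyltransferase, went from 10 domains and 12969 bp to 31 and 30943 bp. WDR36, a ribosome biogenesis factor, went from 4 and 4661 bp to 10 and 11537 bp. The class 3 semaphorins, secreted guidance cues, supplied SEMA3A (17 domains and 21448 bp to 42 and 46250 bp), SEMA3C (11 and 30405 bp to 41 and 61982 bp) and SEMA3D (6 and 7122 bp to 9 and 15224 bp). These semaphorin genes all lie between positions 80742538 and 85250243 of chromosome 7, and the part of this shared location was not tested. NR4A3, an orphan nuclear receptor, went from 6 and 11268 bp to 19 and 23686 bp. RPS6KA3, a ribosomal S6 kinase, went from 28 and 37139 bp to 46 and 73621 bp. OFD1 and GPR37 were the other two.

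Single domains showed the same range of behaviours. The widest after PAX3 was at GNAI1, an inhibitory G protein subunit, where 52464 bp at chr7:80182720-80235183 became part of a domain of 60273 bp. FAM53B carried the most broken domain, 42315 bp at chr10:124703434-124745748 in DMSO and 10 pieces in FHT-1015 that kept 53.3% of it. A domain of 40906 bp at chr11:65469069-65509974, over the nuclear noncoding RNA MALAT1, broke into 5 pieces that kept 90.7%. NFIC and BCL9L domains broke into 7 pieces each, and SLC6A17 and SLC3A2 domains into 6. Among domains that stayed single, that in XYLT1 lost the most length, from 11258 to 2350 bp at chr16:17306880-17318137, followed by domains in LDB3 (9742 to 1846 bp) and ITPK1 (8531 to 973 bp). The domain that gained the most lay in DYNC1I2 at chr2:171711145-171713984, from 2840 to 9956 bp, and HMCN1, an extracellular matrix protein, held a pair of them (5615 to 10003 bp and 4993 to 8521 bp). The widest domain lost outright was 7018 bp at ITLN2, at chr1:160945015-160952032. Others were a 5074 bp domain 3047 bp from ALDH1B1 and a 4930 bp domain in MSI2, an RNA-binding protein gene.

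Binding of the other antibodies, which played no part in the fates, differed between them. Over the whole lists, SOX10 narrow peaks numbered 103379 in DMSO and 33268 in FHT-1015, and SMARCA4 peaks 101987 and 89761. MITF peaks numbered 89519 and 92716 and TFAP2A peaks 142667 and 118942. The shares of each antibody below include the change of its whole list. Comparisons were kept within width classes because wider domains hold more peaks of every antibody. Among distal H3K27ac domains of 1 to 2 kb, a DMSO SOX10 peak was present in 86.7% of lost, 92.1% of shrunken, 93.7% of similar, 93.5% of spreading and 75.2% of fragmented domains. Of the domains with a DMSO SOX10 peak, an FHT-1015 SOX10 peak was found in 1.12% of the lost, 8.96% of the shrunken, 40.04% of the similar, 60.1% of the spreading and 11.6% of the fragmented ones. In the 2 to 5 kb class the shares of lost, shrunken, similar and spreading domains were 1.64%, 20.7%, 72.4% and 94.3%, and that of fragmented ones was 28.1%. SMARCA4 showed the same order over a smaller range, from 47.1% at lost to 95.3% at spreading domains of 1 to 2 kb, and so did MITF (26.1% to 82.6%) and TFAP2A (33.5% to 92.2%). Domains also differed in strength: the median deposited −log10 p of the 2 to 5 kb class was 7.74 for lost and 19.05 for similar domains, and its part in these shares was not tested. At promoters of 2 to 5 kb, SOX10 peaks were still present in 59.2% of shrunken and 81.0% of similar domains.

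**Figure D5:**
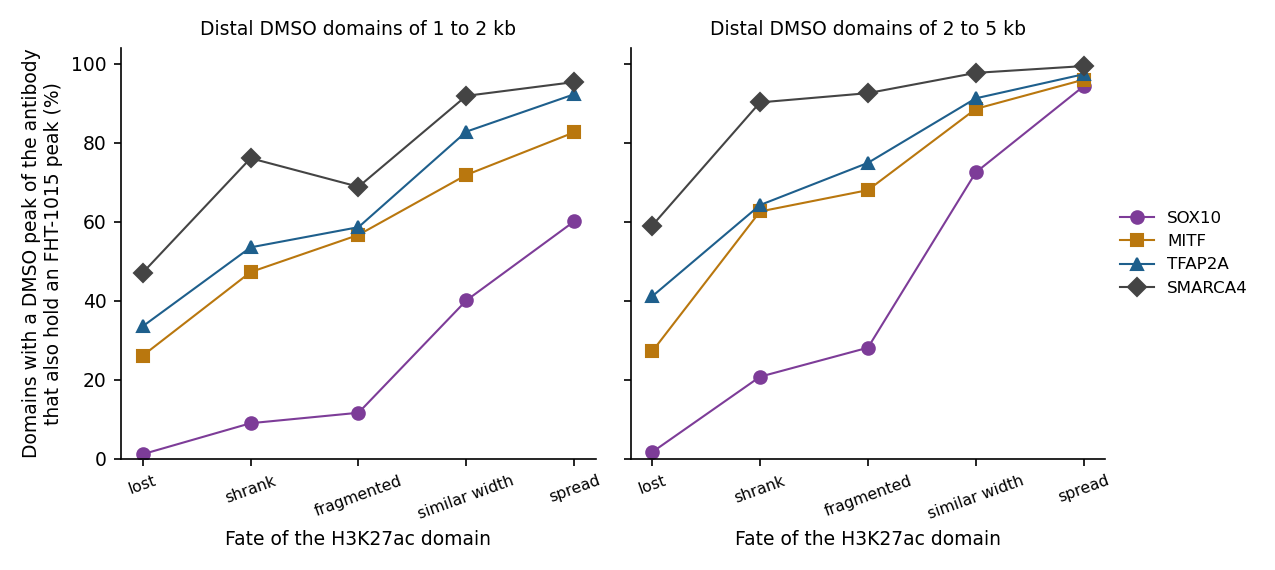
For distal DMSO H3K27ac domains of 1 to 2 kb (left) and 2 to 5 kb (right), points give the percentage of domains holding a DMSO peak of the named antibody that also hold an FHT-1015 peak of it, by domain fate; lines join points of an antibody as a guide. SOX10 has the lowest share at every fate, 1.12% and 1.64% at lost domains. Its whole list holds 103379 peaks in DMSO and 33268 in FHT-1015.

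By gene the values had the same order. The number of SOX10 peaks in FHT-1015 over that in DMSO was 0.211 in the windows of genes called less, 0.441 of genes called neither and 0.591 of genes called more. For SMARCA4 the ratios were 0.799, 0.955 and 1.09, for MITF 0.730, 0.986 and 1.34, and for TFAP2A 0.771, 0.992 and 1.09. All of these ratios include the change of each antibody's whole list, given above. In DMSO the windows of less and neither genes held 5.80 and 6.79 SOX10 peaks per 100 kb.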

How the data were processed

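H3K27ac narrow and broad peak lists of 1 DMSO and 1 FHT-1015 library were used, with narrow lists of 4 other antibodies. Per the submitters' processing notes, the authors used BWA, SAMtools, Picard and MACS2 with the build hg38; versions, settings and controls are not given in the sources used here. Peaks were called per library. The −log10 p and −log10 q and the fold enrichment (a ratio over the caller's background) of each peak were deposited by the authors and used only to filter, rank or describe peaks within a list. The lists gave no column of reads, so the depth was recovered only as far as those values allow (narrow peaks with −log10 p under 250, tolerance 0.001). Overlaps of at least 1 bp, covered lengths, domain fates and gene windows were computed in Python 3.11.15 with pandas 2.3.3 and numpy 2.4.6, and tested on simulated domains. Starts came from RefSeq GRCh38.p14 promoters (15813 of 19974 coding genes). Named genes were list members past the 1.5-fold ratio, 9 pigment or target loci, the 10 lowest and 10 highest ratios (at least 10 kb, same direction in narrow peaks, windows not overlapping) and the 5 most extreme domains of each kind; not all of them are printed, and members named beside them as not called were chosen after their values were seen. The members and gene lists were chosen with earlier results of these data known. No test was possible with 1 library per condition; alternatives covered peak thresholds, joining within 1 kb, file type, overlap, windows and folds. Values of some list members are not reported here.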

Additional observations from a re-analysis of the deposited data

How the results depend on the processing

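Among the ratios and the promoter minus distal difference, the median width was the only value whose direction changed under an alternative run: it was 1.2 times larger in FHT-1015 as called, 1.23 times with q under 0.05, 1.05 times with −log10 p of at least 10, 1.002 times in broad peaks and 0.907 with peaks within 1 kb joined, where it reversed. The ratio of peak numbers (0.706) was 0.794 with −log10 p of at least 10, 0.823 joined and 0.775 in broad peaks. The ratio of covered length (0.740) was 0.735 with q under 0.05, 0.816 with −log10 p of at least 10, 0.7302 joined and 0.764 in narrow peaks. In the same order, the retained share (62.5%) was 66.8, 80.6, 67.8 and 59.3%, the fragmented share (3.33%) 2.45, 1.197, 2.498 and 4.403%, and the promoter minus distal difference (0.51) 0.55, 0.55, 0.44 and 0.58 (log2). The shrunken share (22.01%) was 23.2% with q under 0.05, 27.7% joined and 13.7% in narrow peaks, and the spreading share (7.60%) was 8.42% with −log10 p of at least 10, 9.03% joined and 6.39% in narrow peaks.

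Requiring 50% of the DMSO peak to be covered left 49.3% retained. A width fold of 1.5 gave 16.2% shrunken and 4.496% spreading domains, pieces of at least 500 bp gave 1.597% fragmented, and a 2.5 kb promoter window gave a difference of 0.48. Genes called less (2483) and more (95) were 1651 and 540 with −log10 p of at least 10, and 950 and 22 at a fold of 2. With 200 bp added, 193 genes were called more. Limiting the DMSO broad list to its strongest peaks, so that both lists had equal numbers, was chosen after seeing the data. It gave a length ratio of 0.791, 73.96% retained, 4.291% fragmented, 26.8% shrunken, 8.67% spreading, a difference of 0.38 and 176 genes called more. The cause of these movements was not tested, beyond the fewer peaks that a threshold leaves. No paired analysis was possible because each condition had 1 library, and leaving out a library leaves nothing to compare.

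Depth limits weak peaks most: lists reach down to a −log10 p just above 2, and 78.2% of DMSO broad peaks had a q under 0.05. A domain not called in FHT-1015 is not shown to lack signal. Covered length records extent, not height, and a loss of histone from a site cannot be told apart from a loss of its acetylation.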
